A study of Mus musculus with 12 samples.

Results

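The potassium channel genes described here are all genes whose symbol begins with Kcn followed by a family letter code and a number, with antisense and opposite-strand transcripts left out. The count table held 93 such genes among 43280 symbols, and 64 of them passed the filter on low counts, among 17030 genes that passed in all. The other 29 did not, and Kcnk15 had 0 counts in all 12 libraries. The cells were taken from the submandibular gland, a major salivary gland, of embryonic day 15 mice, all of the transgenic strain Tg(KRT5-Venus)1Sgkd, in which the keratin 5 promoter drives the fluorescent protein Venus. E-cadherin-positive cells were sorted by flow cytometry into 4 groups of 3 libraries each. These are Kit+K5+ and, as single positives, Kit+K5- and Kit-K5+, with Kit-K5- as the group of neither marker, where Kit is a receptor tyrosine kinase of salivary progenitors and K5 stands for Venus. The sources used here do not say how many embryos went into a library, so p-values measure the spread between these samples, which may be technical. All groups carried the same transgene and the same E-cadherin gate, and no treatment or mutation is labelled.

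Potassium channels let potassium leave the cell and set the resting potential. In salivary glands, basolateral and apical potassium exit through calcium-activated channels keeps the cell negative inside, and this drives chloride and fluid into the lumen. The channel family falls into pore-forming classes (voltage-gated, inward rectifier, tandem-pore, calcium- or sodium-activated) and into auxiliary subunits that do not form a pore but change gating or surface level. Kcnn4, the calcium-activated intermediate-conductance channel, and Kcnma1, the pore of the large-conductance channel, are the known potassium exit routes of salivary secretory cells.

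The libraries held 5589037 to 13724364 counts. The label of epithelial cells was checked against 20 genes of general epithelium, whose summed level, in CPM after TMM scaling (read counts scaled to library size), lay at 2115 to 4146 in the Kit+K5+ group, 2006 to 3485 in the Kit+K5- group, 2178 to 2360 in the Kit-K5+ group and 579 to 777 in the Kit-K5- libraries. The sum of 14 mesenchyme genes was 652 to 1019 CPM in the Kit+K5+ group, 611 to 929 in the Kit+K5- group, 901 to 1208 in the Kit-K5+ group and 12179 to 19991 in the Kit-K5- libraries. The Kit-K5- libraries thus stood apart, with fewer epithelial and more mesenchymal transcripts in every library. Mitochondrial transcripts were 17.8 to 30.9% of counts in the Kit+K5+ group, 10.96 to 27.3% in the Kit+K5- group, 24.2 to 30.6% in the Kit-K5+ group and 5.59 to 12.2% in the Kit-K5- libraries, and their part in the results was not tested. In bulk libraries, fewer cells of a type and less RNA per cell cannot be told apart. Mast cell transcripts were also uneven, at 5359 summed CPM in Kit+K5- replicate 1, against 239 and 131 in the other Kit+K5- libraries. The plot of marker lists shows these sums by library.

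**Figure D1:**
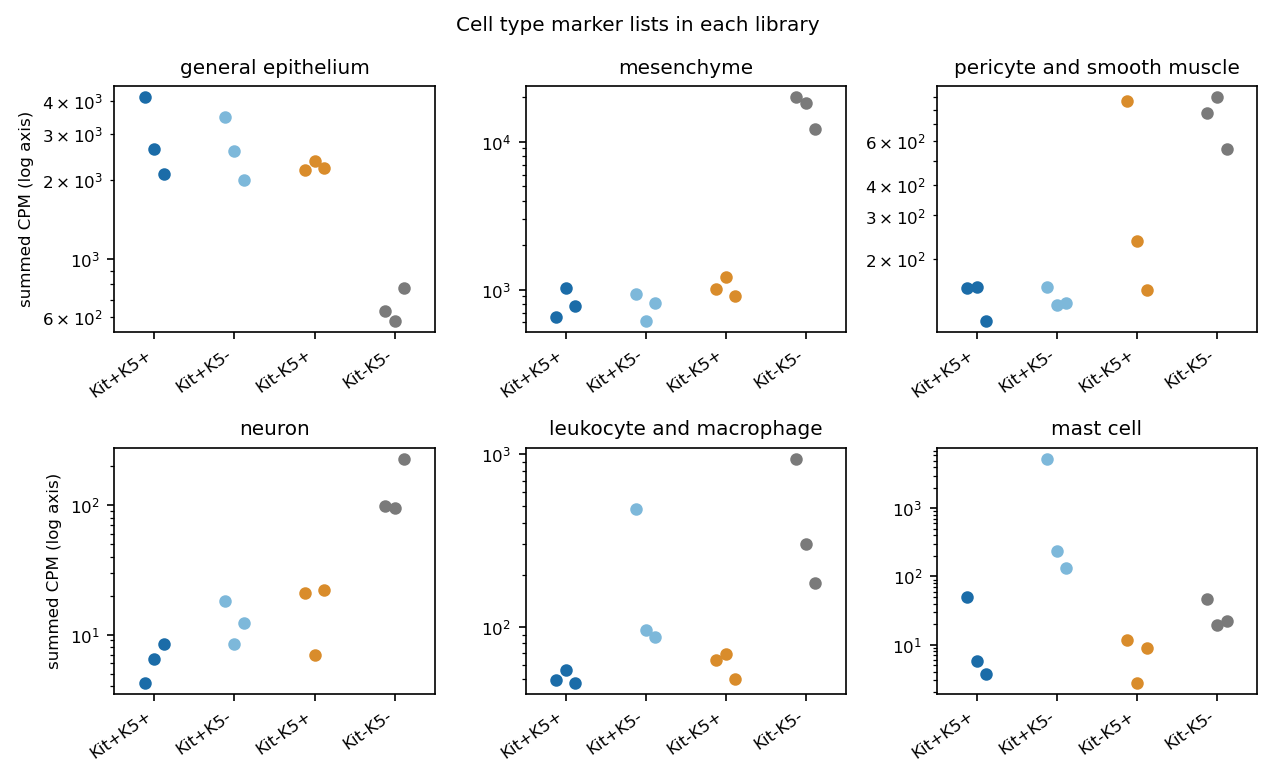
Summed CPM (log axis) of 6 marker lists in each of the 12 libraries, by sorted group; points are libraries, with no mean drawn. The mesenchyme sum lies at 12179 to 19991 CPM in the 3 Kit-K5- libraries and at 611 to 1208 CPM in the 9 others, while the general epithelium sum is lowest in Kit-K5-.

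Detection differed among channel classes. All 5 Kcnq and all 4 Kcnn genes passed the filter, as did 14 of 17 voltage-gated pore genes (Kcna to Kcnd), 12 of 16 auxiliary subunit genes, 11 of 15 inward rectifiers, 6 of 8 Kcnh genes, 3 of 4 large-conductance and sodium-activated genes, 6 of 14 tandem-pore genes and 3 of 10 silent modifier subunits. A gene could pass through 1 group alone, so these are not counts of genes present in each group.

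Per kilobase of exon (RPKM, the CPM divided by the exon length in GENCODE M21), Kcnk1, a tandem-pore channel of epithelia, had the highest level of the family, with a mean of 27.5 RPKM over the 12 libraries. It averaged 34.8 ± 7.08 RPKM in the Kit+K5+ group, 38.6 ± 9.99 in the Kit+K5- group, 27.2 ± 3.05 in the Kit-K5+ group and 9.63 ± 3.28 in the Kit-K5- cells (SD, n = 3 each). Next came Kcnn4 at a mean of 8.56 RPKM, the auxiliary subunit Kcne1l at 4.80, the tandem-pore channel Kcnk5 at 4.34 and the auxiliary subunit Kcne4 at 3.70. The other members of the top 10 were Kcnmb4 (3.56 RPKM), an auxiliary subunit of the large-conductance channel, Kcnj8 (2.90), a pore subunit of ATP-sensitive channels, Kcnip3 (2.18), a calcium-binding partner of voltage-gated channels, Kcnk6 (1.66), a further tandem-pore channel, and Kcnd1 (1.54), a transient voltage-gated channel. These ranks hide opposite patterns. In Kit-K5- cells Kcne4 stood at 14.2 ± 4.97 RPKM and Kcnj8 at 10.5 ± 3.96, against 9.63 ± 3.28 for Kcnk1, a difference from Kcnj8 smaller than the spread, whereas in each of the 3 other groups Kcne4 averaged 0.159 to 0.233 RPKM and Kcnj8 0.0657 to 0.733 RPKM.

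**Figure D2:**
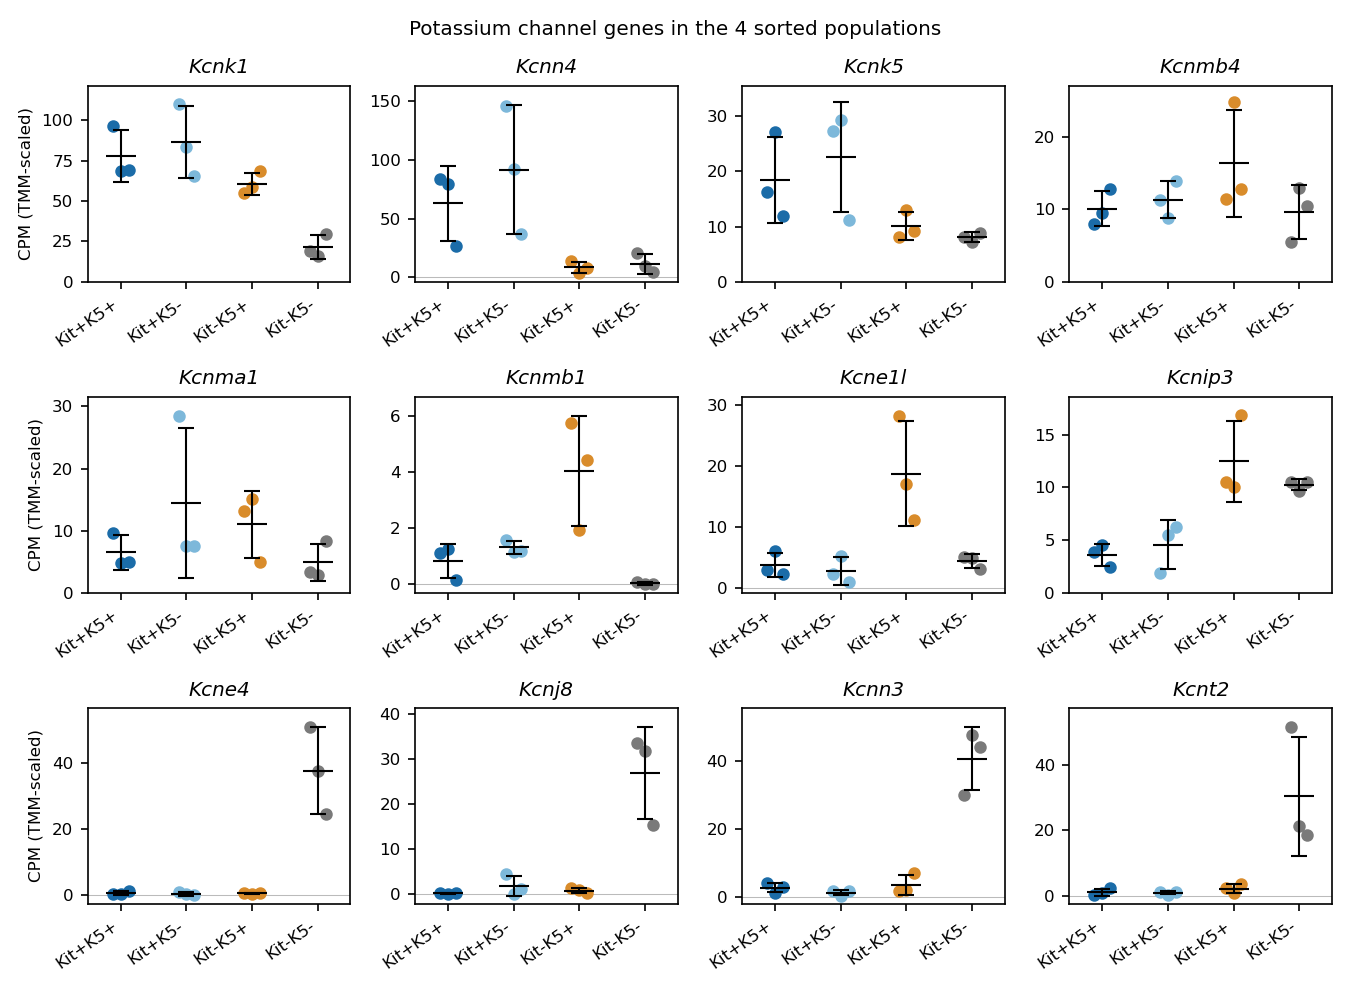
CPM of 12 potassium channel genes in each library, by sorted group; points are the 3 libraries of a group and bars the mean with its SD. Kcnk1 is lowest in the 3 Kit-K5- libraries, Kcnn4 is highest in the Kit+ libraries, and Kcne4, Kcnj8, Kcnn3 and Kcnt2 are high in the Kit-K5- libraries and low in the 9 others.

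The promoters of 4 genes are shown because these genes carry the opposite patterns: Kcnk1 and Kcnn4, the pair with the highest mean level, and Kcne4 and Kcnj8, the highest-level members among those lower in marked cells. Each window runs 5′ to 3′ on the strand of the gene from 250 bases before to 50 after the start in RefSeq on GRCm38.p6: Kcnk1 at chr8:125994852-125995151 (plus strand), Kcnn4 at chr7:24370013-24370312 (plus), Kcne4 at chr1:78816661-78816960 (plus) and Kcnj8 at chr6:142571565-142571864 (minus). Capitals mark matches, on either strand, to the TATA box TATAAA, the CCAAT box CCAAT, the GC box GGGCGG or the E-box CACGTG.
Kcnk1: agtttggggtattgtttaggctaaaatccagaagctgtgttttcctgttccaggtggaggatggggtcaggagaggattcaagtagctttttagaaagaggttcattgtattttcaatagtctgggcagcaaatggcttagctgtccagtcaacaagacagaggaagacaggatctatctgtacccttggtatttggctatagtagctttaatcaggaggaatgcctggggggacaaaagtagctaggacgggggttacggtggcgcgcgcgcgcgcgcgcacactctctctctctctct
Kcnn4: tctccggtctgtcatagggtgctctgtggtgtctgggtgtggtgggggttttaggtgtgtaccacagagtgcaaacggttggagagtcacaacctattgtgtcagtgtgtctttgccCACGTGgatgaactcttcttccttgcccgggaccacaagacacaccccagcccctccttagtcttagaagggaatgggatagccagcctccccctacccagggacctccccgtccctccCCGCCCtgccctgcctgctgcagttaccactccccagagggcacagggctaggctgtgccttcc
Kcne4: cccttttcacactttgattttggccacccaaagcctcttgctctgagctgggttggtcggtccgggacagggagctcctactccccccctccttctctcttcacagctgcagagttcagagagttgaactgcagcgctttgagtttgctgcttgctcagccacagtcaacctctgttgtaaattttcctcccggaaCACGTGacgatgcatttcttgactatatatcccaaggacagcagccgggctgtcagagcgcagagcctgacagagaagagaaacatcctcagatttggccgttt
Kcnj8: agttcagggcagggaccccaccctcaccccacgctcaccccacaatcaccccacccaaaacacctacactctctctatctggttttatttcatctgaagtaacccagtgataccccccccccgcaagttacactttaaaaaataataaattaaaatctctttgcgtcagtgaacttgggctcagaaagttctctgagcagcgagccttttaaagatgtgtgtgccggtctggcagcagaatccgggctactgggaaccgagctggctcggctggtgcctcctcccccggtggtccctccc
The Kcnn4 window held 1 E-box and 1 GC box, the Kcne4 window 1 E-box, and the windows of Kcnk1 and Kcnj8 no match to these letters. Of 26742 promoter windows of this length, 7.25% held the E-box, 36.2% the GC box, 37.9% the CCAAT box and 14.1% the TATA box. Among the 68 potassium channel genes with a window, the shares were 7.35%, 52.9%, 29.4% and 4.41% in that order. The median number of CpG dinucleotides was 10 in the windows of the potassium channel genes and 7 in all windows. Of the genes called higher in marked cells, Kcnk5 and Kcnn4 had the E-box in their windows, and of those called lower, Kcne4 did. The RefSeq start lay 153 bases downstream of the GENCODE M21 start for Kcne4 and 68 bases upstream for Kcnk1, so these windows depend on the annotation.

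The 3 marked groups together, weighted equally, were set against the double-negative Kit-K5- group, to ask how the family is divided between cells carrying either sort marker and cells with neither. A gene passed where its adjusted p was under 0.05 in edgeR's quasi-likelihood test, with Benjamini-Hochberg adjustment over all 17030 genes. Of the 64 potassium channel genes tested 23 passed, where 29.6% of all genes did. In marked cells 19 were lower, or 29.7%, where 16.9% of all genes tested were lower. The other 4 calls, Kcnk1, Kcnk5, Kcnmb1 and Kcnn4, were higher, where 12.7% of all genes tested were higher. The median log2 difference was -0.42 over the 64 genes and 0.01 over all genes tested. The lower genes included 8 of 14 voltage-gated pore genes, and the higher ones none of that class. Some genes, such as Kcnd2, Kcne4 and Kcnj12, passed the filter on low counts only through the Kit-K5- libraries, and Kcnmb1 only through marked ones. Such genes could hardly be called in the other direction, so these shares depend in part on the filter, which was the same for all genes.

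The same contrast had 16 of 20 general epithelium genes higher and 0 lower. All 14 mesenchyme genes, all 11 neuron genes, 10 of 11 leukocyte and macrophage genes, 6 of 7 tested erythroid genes and 6 of 7 tested endothelium genes were lower. Schwann and glia genes ran both ways, with 2 of 10 higher and 5 lower and a list median of -1.59 on the log2 scale. Their sum was 388 to 424 CPM in the Kit+K5+ group, 379 to 435 in the Kit+K5- group, 199.5 to 359 in the Kit-K5+ group and 111 to 226 in the Kit-K5- libraries. Sox10 and Erbb3, both in this list, are also expressed by salivary epithelium, so the sum does not measure glial transcripts alone. The neuron sum was 4.24 to 8.40 CPM in the Kit+K5+ group, 8.43 to 18.1 in the Kit+K5- group, 7.01 to 22.0 in the Kit-K5+ group and 94.2 to 228 in the Kit-K5- libraries. No mesenchyme or neuron marker was at 0 in all libraries of a group. The part of these cell types in the results on potassium channel genes was not tested. With libraries scaled so that the 20 epithelium genes had equal sums, the median of all genes moved by -1.94, and 46 potassium channel genes were lower and 1 higher (71.9% and 1.56%), where 81.3% of all genes tested were lower and 0.188% higher. Relative to epithelial transcripts, the higher calls of Kcnk1, Kcnk5 and Kcnn4 were not kept, and that of Kcnmb1 was. As this scaling lowers the log2 difference of genes in general, a gene lower under TMM could only be lower on it.

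**Figure D3:**
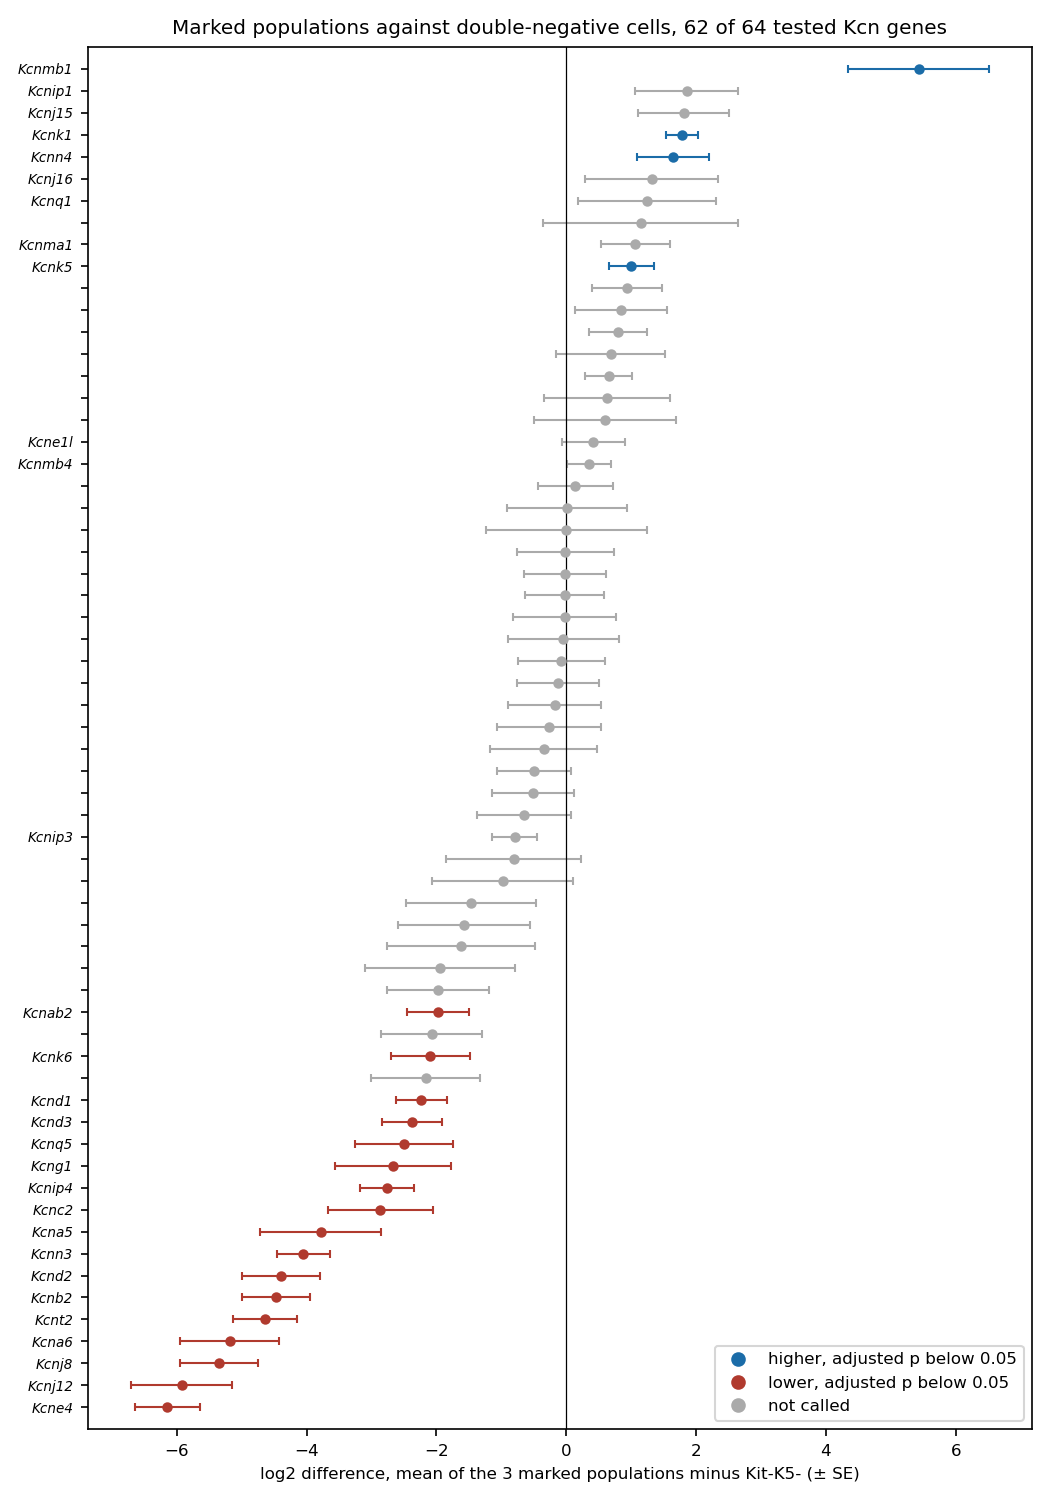
Log2 difference of the marked groups against Kit-K5- cells, with its standard error, for 62 of the 64 potassium channel genes tested, ordered by difference; coloured points passed at an adjusted p under 0.05 and grey ones did not, and gene names are given for genes named in the text. The 17 lower genes drawn reach -6.14 (Kcne4), and 4 genes are higher.

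Among tandem-pore channels, Kcnk1 had 96.0, 68.3 and 69.0 CPM in the Kit+K5+ group, 109.9, 83.3 and 65.5 CPM in the Kit+K5- group, 55.1, 58.7 and 68.3 CPM in the Kit-K5+ group, and 18.9, 15.9 and 29.8 CPM in the Kit-K5- libraries. Every marked library lay above every Kit-K5- library, and the 3 marked groups overlapped one another. The gene was higher in marked cells by 1.79 ± 0.24 on the log2 scale (SE, adjusted p = 1.02e-04), in Kit-K5+ against Kit-K5- cells by 1.498 ± 0.27 (adjusted p = 0.00242) and in Kit+K5- against Kit-K5- cells by 2.01 ± 0.28 (adjusted p = 2.20e-04). These 3 comparisons share the Kit-K5- libraries. With libraries scaled to the epithelium genes, the 3 values were -0.15, -0.24 and 0.01 and none passed. An antisense transcript, Gm45875, covers 8.01% of its exonic bases.

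Kcnk5, a channel opened by alkaline conditions outside the cell, had 16.2, 27.0 and 11.9 CPM in the Kit+K5+ group, 27.3, 29.2 and 11.2 CPM in the Kit+K5- group, 8.13, 12.9 and 9.18 CPM in the Kit-K5+ group, and 8.20, 7.13 and 8.88 CPM in the Kit-K5- libraries. The Kit+K5- libraries all lay above the Kit-K5- ones, and the Kit-K5+ libraries overlapped them. It was higher in Kit+K5- than in the Kit-K5- cells by 1.49 ± 0.40 on the log2 scale (adjusted p = 0.0185), a call lost without Kit+K5- replicate 1 or 2 or Kit-K5- replicate 1 or 2. Its call in marked cells (log2 1.00 ± 0.35, adjusted p = 0.0426) was lost without any 1 of 8 libraries, with adjusted p up to 0.161, and on the epithelial scale it was lower (log2 -0.97, adjusted p = 0.0179). Kcnk6 went the other way, with 6.55, 3.18 and 0.258 CPM in the Kit+K5+ group, 12.9, 2.63 and 2.04 CPM in the Kit+K5- group, 2.75, 2.47 and 2.49 CPM in the Kit-K5+ group, and 25.4, 12.3 and 9.90 CPM in the Kit-K5- libraries. Kit+K5- replicate 1 reached the Kit-K5- range and the other marked libraries did not. It was lower in marked cells by a log2 of -2.09 ± 0.61 (adjusted p = 0.0186, and 0.151 without Kit-K5- replicate 1). Between Kit-K5+ and Kit-K5- cells its log2 of -2.62 ± 0.87 did not pass (adjusted p = 0.0544), but did with a block on library runs (adjusted p = 0.0119).

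Among calcium-activated channels, Kcnn4 had 83.4, 79.7 and 26.4 CPM in the Kit+K5+ group, 146, 92.1 and 37.1 CPM in the Kit+K5- group, 13.8, 3.71 and 8.03 CPM in the Kit-K5+ group, and 20.8, 9.73 and 4.49 CPM in the Kit-K5- libraries. All 6 Kit+ libraries lay above all 6 Kit- libraries, in both K5 classes. Among K5- cells Kcnn4 was higher in Kit+ than in Kit- cells, with a log2 difference of 2.96 ± 0.65 (adjusted p = 0.00540), and by 0.79 on the epithelial scale (adjusted p = 0.196). The TMM call held without any 1 library (adjusted p up to 0.0278). The highest value was in Kit+K5- replicate 1, the library with the most mast cell transcripts, whose part in it was not tested. Among K5+ cells, where the epithelial sums are 2115 to 4146 CPM in Kit+ and 2178 to 2360 CPM in Kit- libraries, the difference was 2.89 ± 0.66 (adjusted p = 0.0605). That value passed with the block on library runs (log2 2.84, adjusted p = 0.00377), with DESeq2 and on the epithelial scale (log2 2.45, adjusted p = 0.0472). Its call over all marked cells (log2 1.64 ± 0.55, adjusted p = 0.0370) was lost without any 1 of 6 libraries, at most at an adjusted p of 0.147, and its value was -0.43 on the epithelial scale.

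Of the large-conductance channel, the pore Kcnma1 had 9.68, 4.82 and 5.04 CPM in the Kit+K5+ group, 28.4, 7.48 and 7.57 CPM in the Kit+K5- group, 13.1, 15.1 and 4.97 CPM in the Kit-K5+ group, and 3.41, 2.91 and 8.37 CPM in the Kit-K5- libraries. The groups overlapped, and the highest value was in the Kit+K5- library with the most mast cell transcripts, whose part in it was not tested. Kcnma1 passed in none of the 6 comparisons, with log2 1.19 ± 0.62 (adjusted p = 0.213) for K5 in Kit- cells and 1.58 ± 0.62 (adjusted p = 0.0894) for Kit in K5- cells. Without that library, Kit+K5- replicate 1, the value for Kit in K5- cells was 0.63 (adjusted p = 0.513), and it was -0.51 on the epithelial scale. It passed with DESeq2 (log2 1.55, adjusted p = 0.0495) and with no filter on low counts (adjusted p = 0.0196). Kcnmb4 had 8.02 to 12.8 CPM in the Kit+K5+ group, 8.74 to 13.8 in the Kit+K5- group, 11.4 to 24.7 in the Kit-K5+ group and 5.51 to 12.9 in the Kit-K5- libraries, and also passed in none. Antisense transcripts Kcnmb4os1 and Kcnmb4os2 cover 10.7% and 20.8% of its exonic bases, and the sources used here do not give the strand setting of the counts.

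Kcnmb1, the subunit best known from smooth muscle, had 1.11, 1.25 and 0.129 CPM in the Kit+K5+ group, 1.59, 1.16 and 1.17 CPM in the Kit+K5- group, 5.75, 1.92 and 4.40 CPM in the Kit-K5+ group, and 0.0656, 0 and 0 CPM in the Kit-K5- libraries. Every marked library lay above every Kit-K5- library, and the Kit-K5+ libraries were highest. Kit+K5+ replicate 3 and Kit-K5- replicate 1 held 1 count each, so only their depth set them apart. The Kit-K5- group held 1 count in all, so its change is given as a ratio of summed counts scaled for depth. The ratio was 154 for Kit-K5+ over Kit-K5- cells (83 counts against 1, 95% interval from counting 26.9 to 6163) and 50.2 for Kit+K5- over Kit-K5- cells (34 counts against 1, 8.41 to 2039). Both passed (adjusted p = 0.00183 and 0.00644), as did the marked groups together (adjusted p = 0.00203, and 0.0104 on the epithelial scale). Summed pericyte and smooth muscle transcripts reached 866, 237 and 149.8 CPM in the 3 Kit-K5+ libraries, in replicate order. The same sum was 556 to 901 CPM for Kit-K5-, where Kcnmb1 was at or near 0. Most of that Kit-K5- sum was Abcc9, a gene of the list, with a group mean of 479.6 of 745 CPM. For the Kit-K5+ group, Abcc9 averaged 8.96 of 417 CPM. For K5 among Kit- cells, 3 genes of the list were higher and 5 lower. Whether Kcnmb1 follows smooth muscle transcripts was not tested. Kcnmb1 (chromosome 11, 33963013 to 33973641) lies within the span of Kcnip1 (33629339 to 33993152), without overlap of their exons.

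Of the small-conductance channels, Kcnn3 had 4.15, 1.35 and 3.10 CPM in the Kit+K5+ group, 1.80, 0.527 and 1.89 CPM in the Kit+K5- group, 1.88, 2.20 and 7.08 CPM in the Kit-K5+ group, and 30.1, 47.5 and 44.1 CPM in the Kit-K5- libraries. The marked and Kit-K5- libraries did not overlap. It was lower in marked cells by a log2 of -4.05 ± 0.40 (adjusted p = 5.70e-06). The sodium-activated channel Kcnt2 had 0.277 to 2.20 CPM in the Kit+K5+ group, 0.316 to 1.16 in the Kit+K5- group, 0.824 to 3.44 in the Kit-K5+ group, and 51.5, 21.4 and 18.6 CPM in the Kit-K5- libraries, again without overlap (log2 -4.64 ± 0.50, adjusted p = 1.21e-05).

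Among inward rectifiers, Kcnj8, which forms ATP-sensitive channels with a sulfonylurea receptor, had 0.277, 0.0964 and 0.129 CPM in the Kit+K5+ group, 4.33, 0.105 and 1.17 CPM in the Kit+K5- group, 1.25, 0.824 and 0.191 CPM in the Kit-K5+ group, and 33.5, 31.7 and 15.2 CPM in the Kit-K5- libraries. No marked library reached the Kit-K5- range. It was lower in marked cells by a log2 of -5.36 ± 0.60 (adjusted p = 1.82e-05). Abcc9, the receptor subunit it pairs with in vascular mural cells, had 9.82 ± 4.19 CPM in the Kit+K5+ group, 7.87 ± 4.66 in the Kit+K5- group, 8.96 ± 2.81 in the Kit-K5+ group and 479.6 ± 138 CPM in the Kit-K5- cells (log2 -5.76 ± 0.31 for marked against Kit-K5- cells, adjusted p = 1.49e-08). Abcc8, the other receptor subunit, went the other way, at 13.1 ± 5.28, 11.4 ± 0.802, 5.23 ± 4.75 and 2.39 ± 1.30 CPM in the same order of groups (log2 1.92 ± 0.55, adjusted p = 0.0181, and log2 -0.11 on the epithelial scale). Abcc9 is itself 1 of the 10 pericyte and smooth muscle markers, whose other members did not all move with it: 4 of the list were lower in marked cells and 0 higher.

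Kcnj12, a strong inward rectifier of excitable cells, was at 0 counts in the Kit+K5+ libraries, had 0.106 to 0.291 CPM in the Kit+K5- libraries and 1 count in the Kit-K5+ group, against 1.90, 4.29 and 3.88 CPM in the Kit-K5- libraries. The ratio of Kit-K5- over Kit-K5+ counts was 66.2 (123 counts against 1, 95% interval from counting 11.7 to 2636, adjusted p = 0.00770). Kcnj15, a rectifier of transporting epithelia, had 1.11, 6.65 and 7.24 CPM in the Kit+K5+ group, 3.59, 10.7 and 13.98 CPM in the Kit+K5- group, 1.38, 8.79 and 7.65 CPM in the Kit-K5+ group, and 1.18, 1.38 and 3.06 CPM in the Kit-K5- libraries. Replicate 1 was the lowest library of each group. Its difference between Kit+K5- and Kit-K5- cells did not pass (log2 2.34 ± 0.81, adjusted p = 0.0535) and did with the block on library runs (adjusted p = 0.00535). Kcnj16, which assembles with other rectifiers of epithelia, had 2 counts in the Kit+K5+ group and 9 in the Kit-K5- group. The Kit+K5- group held 44 (33, 7 and 4 by replicate) and the Kit-K5+ group 39 (21, 4 and 14). Kit+K5- replicate 1 was the library with the most mast cell transcripts. The ratio was 24.7 for Kit+K5- over Kit+K5+ cells (95% interval from counting 6.43 to 210.1) and 27.5 for Kit-K5+ over Kit+K5+ cells (7.13 to 235). These intervals leave out the spread between libraries. Neither difference passed (adjusted p = 0.398 and 0.0963).

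Voltage-gated pore genes were lower in marked cells wherever they passed, though some entered the test only through the Kit-K5- group. Kcnb2, a delayed rectifier, had 0.922, 3.09 and 0.646 CPM in the Kit+K5+ group, 3.59, 0.527 and 3.06 CPM in the Kit+K5- group, 2.0, 1.79 and 11.9 CPM in the Kit-K5+ group, and 67.4, 51.0 and 60.2 CPM in the Kit-K5- libraries. All marked libraries lay below the Kit-K5- range, Kit-K5+ replicate 3 being the highest of them. The log2 difference was -4.47 ± 0.52 (adjusted p = 2.77e-05). The transient channels Kcnd1, Kcnd2 and Kcnd3 were lower by log2 -2.23 ± 0.40, -4.39 ± 0.60 and -2.38 ± 0.46 (adjusted p = 8.51e-04, 1.04e-04 and 0.00169). Kcnd1 had 1.68 to 7.56 CPM in the Kit+K5+ group, 3.16 to 4.12 in the Kit+K5- group, 3.16 to 8.0 in the Kit-K5+ group and 19.1 to 20.1 CPM in the Kit-K5- libraries, and the marked libraries did not overlap the Kit-K5- ones.

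Kcna6, a delayed rectifier of neurons, had 0.184, 0.193 and 0 CPM in the Kit+K5+ group, 2.85, 0.105 and 0 CPM in the Kit+K5- group, 0.125, 0.550 and 0.956 CPM in the Kit-K5+ group, and 22.7, 14.6 and 9.90 CPM in the Kit-K5- libraries. No marked library came near the Kit-K5- range (log2 -5.19 ± 0.76, adjusted p = 1.81e-04). The antisense transcript Gm26673 covers 39.6% of its exonic bases, so reads of the pair cannot be told apart here. Kcna5, a channel of heart and smooth muscle, had 2 counts in the Kit+K5- group and 130 in the Kit-K5- libraries, a ratio of 44.1 for Kit-K5- over Kit+K5- cells (95% interval from counting 11.95 to 368, adjusted p = 0.0266, and up to 0.106 without any 1 of 5 libraries). Kit-K5+ replicate 3 had 3.44 CPM, within the Kit-K5- range of 2.45 to 4.37 CPM. Kcnc2, a fast delayed rectifier, was also lower (log2 -2.87 ± 0.81, adjusted p = 0.0163, and up to 0.0667 without Kit-K5- replicate 1 or 3). Its highest library was a marked one, Kit-K5+ replicate 3 at 4.59 CPM, above the Kit-K5- range of 2.53 to 3.88 CPM.

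Other pore genes lower in marked cells included the slow channel Kcnq5 (log2 -2.50 ± 0.76, adjusted p = 0.0238) and the silent modifier Kcng1 (log2 -2.67 ± 0.90, adjusted p = 0.0378). The call of Kcnq5 was lost without Kit-K5- replicate 1 or 3 and that of Kcng1 without any 1 of 8 libraries, at adjusted p up to 0.108 and 0.299. Kcnq1, which pairs with Kcne subunits in secretory epithelia, had 0.830, 0.482 and 4.78 CPM in the Kit+K5+ group, 2.32, 1.05 and 1.60 CPM in the Kit+K5- group, 1.25, 0.275 and 0 CPM in the Kit-K5+ group, and 0.787, 0.690 and 0 CPM in the Kit-K5- libraries, and passed in none of the 6 comparisons. Its antisense neighbour Kcnq1ot1 took 51444 counts against 127 for Kcnq1 and covers 2.96% of its exonic bases.

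Auxiliary subunits moved in both directions. Kcne4, which inhibits the Kcnq1 channel, had 0.277, 0.289 and 1.29 CPM in the Kit+K5+ group, 1.06, 0.211 and 0 CPM in the Kit+K5- group, 0.625, 0.412 and 0.574 CPM in the Kit-K5+ group, and 50.9, 37.7 and 24.5 CPM in the Kit-K5- libraries. The lowest Kit-K5- library was far above the highest marked one. It had the largest difference of the family in marked cells (log2 -6.14 ± 0.50, adjusted p = 8.14e-07). Kcnip4, a calcium-binding partner of the transient channels, was lower (log2 -2.76 ± 0.41, adjusted p = 2.29e-04), as was Kcnab2, a beta subunit of voltage-gated channels (log2 -1.98 ± 0.48, adjusted p = 0.00714, and 0.0855 without Kit-K5- replicate 1).

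Kcne1l, a Kcne-family subunit, had 2.86, 5.98 and 2.33 CPM in the Kit+K5+ group, 2.22, 5.27 and 0.874 CPM in the Kit+K5- group, 28.1, 17.0 and 11.1 CPM in the Kit-K5+ group, and 5.12, 4.90 and 3.06 CPM in the Kit-K5- libraries. The 3 Kit-K5+ libraries were above all 9 others. It was higher in Kit-K5+ than in the Kit-K5- cells by 2.10 ± 0.60 on the log2 scale (adjusted p = 0.0285), a call lost without any 1 of 5 libraries of those groups, at adjusted p up to 0.111, and not kept on the epithelial scale (log2 0.30, adjusted p = 0.679). Against Kit-K5+ cells, Kit+K5+ cells had a log2 of -2.33 ± 0.60 (adjusted p = 0.0847), which passed with the block on library runs (log2 -2.39, adjusted p = 0.0171). Kcnip3 had 3.87, 4.53 and 2.45 CPM in the Kit+K5+ group, 1.90, 5.48 and 6.26 CPM in the Kit+K5- group, 10.5, 10.03 and 16.8 CPM in the Kit-K5+ group, and 10.6, 9.65 and 10.5 CPM in the Kit-K5- libraries. All 6 Kit+ libraries lay below all 6 Kit- libraries. Its difference between Kit+K5+ and Kit-K5+ cells (log2 -1.77 ± 0.46, adjusted p = 0.0853) passed with the block (log2 -1.73, adjusted p = 0.0472).

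Kcne1, Kcne2 and Kcne3, subunits that pair with Kcnq1 in secretory epithelia, did not pass the filter. Kcne1 had 0, 0 and 0.258 CPM in the Kit+K5+ group, 0.211, 0 and 0 CPM in the Kit+K5- group, 3.88, 1.10 and 0.383 CPM in the Kit-K5+ group, and 0, 0.0766 and 0 CPM in the Kit-K5- libraries, so the 3 Kit-K5+ libraries were the highest. Kcne2 was highest at 2.30 CPM in Kit-K5+ replicate 3. Kcne3 stood at 14.3 CPM in Kit+K5- replicate 1 and at 3.38 CPM or less in every other library. That replicate held the most mast cell transcripts, whose part in the Kcne3 value was not tested. Kcnip1, a calcium-binding partner of the transient channels, stood at 11.5, 9.89 and 6.504 CPM in all 3 Kit-K5+ libraries and 0.131, 2.15 and 2.65 CPM in the Kit-K5- libraries. These 2 groups did not overlap (log2 2.52 ± 0.92, adjusted p = 0.0765, and 0.0181 with the block on library runs). The Kit+K5+ libraries had 0.369, 6.56 and 3.75 CPM and the Kit+K5- libraries 3.80, 6.21 and 8.45 CPM, so both groups overlapped the Kit-K5+ one.

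Within Kit- cells, the K5+ libraries were compared with the K5- libraries. In Kit-K5+ cells 16 of the 64 genes passed, where 16.5% of all genes tested did. Kcne1l, Kcnk1 and Kcnmb1 were higher, where 7.38% of all genes were, and 13 genes were lower (20.3%), where 9.10% of all genes were. The lower genes included Kcna6, Kcnb2, Kcnd1, Kcnd2, Kcnd3, Kcnab2, Kcne4, Kcnip4, Kcnj8, Kcnj12, Kcnn3 and Kcnt2. The largest was Kcne4 (log2 -6.10 ± 0.80, adjusted p = 2.17e-04), followed among genes with more than 3 counts in each group by Kcnj8 (-5.06 ± 0.91, adjusted p = 0.00227), Kcna6 (-4.90 ± 1.16, adjusted p = 0.0114) and Kcnt2 (-3.83 ± 0.73, adjusted p = 0.00326). As for marked cells, these shares depend in part on the filter on low counts. The medians were -0.08 over the 64 genes and 0.04 over all. Without Kit-K5- replicate 1 the count was 10. The mesenchyme list had 13 of 14 genes lower in the same comparison and the epithelium list 9 of 20 higher.

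Within K5- cells, the Kit+ libraries were compared with the Kit- libraries. In Kit+K5- cells 17 of the 64 genes passed, where 21.3% of all genes tested did. Kcnk1, Kcnk5, Kcnmb1 and Kcnn4 were higher, where 10.2% of all genes were. The 13 lower genes (20.3%, where 11.1% of all genes were lower) included Kcna5, Kcna6, Kcnb2, Kcnd1, Kcnd2, Kcne4, Kcnip4, Kcnj8, Kcnj12, Kcnn3 and Kcnt2. Kcne4 was lower by a log2 of -6.35 ± 0.80 (adjusted p = 1.08e-04), Kcnt2 by -5.19 ± 0.79 (adjusted p = 4.89e-04) and Kcnn3 by -4.86 ± 0.64 (adjusted p = 1.53e-04). Kcnd3 did not pass (log2 -1.80 ± 0.63, adjusted p = 0.0583) and did with the block on library runs (adjusted p = 0.0148). Here too the shares depend in part on the filter on low counts. The medians were -0.37 over the 64 genes and 0.05 over all. All 14 mesenchyme genes were lower and 17 of 20 epithelium genes higher in the same comparison, and 7 of 8 tested mast cell genes were higher.

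On the epithelial scale the median of all genes moved by -1.78 for K5 in Kit- cells and by -1.97 for Kit in K5- cells. With such a shift only the higher calls could be lost or turned. Of these, Kcnmb1 was higher in both (adjusted p = 0.00230 and 0.0324), while Kcnk1 and Kcne1l among Kit- cells and Kcnk1, Kcnk5 and Kcnn4 among K5- cells did not pass. Under TMM scaling, among genes of fluid secretion that work with potassium channels, 7 of 12 were higher in marked cells and 1 lower, where 12.7% of all genes were higher and 16.9% lower. These included Chrm3, the muscarinic receptor (log2 3.24 ± 0.55, adjusted p = 6.42e-04), Ano1, the calcium-activated chloride channel (1.58 ± 0.32, adjusted p = 0.00240), and Slc12a2, the basolateral chloride importer (1.31 ± 0.20, adjusted p = 3.10e-04). Itpr2, a calcium release channel, was lower (-1.01 ± 0.31, adjusted p = 0.0241). On the epithelial scale Chrm3 was higher (log2 1.29, adjusted p = 0.0233), while Ano1 (log2 -0.44, adjusted p = 0.163) and Slc12a2 (log2 -0.62, adjusted p = 0.0831) were below 0 and did not pass.

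**Figure D4:**
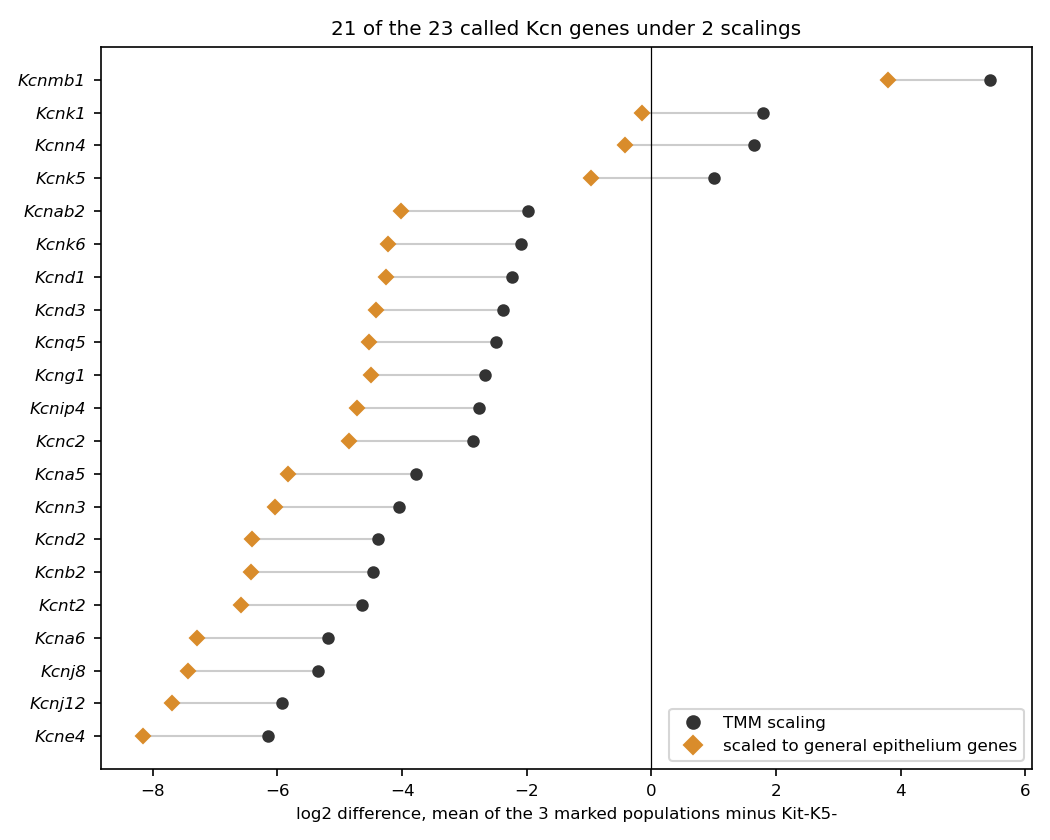
Log2 difference of the marked groups against Kit-K5- cells for 21 of the 23 potassium channel genes called, under TMM scaling and with libraries scaled to equal sums of 20 epithelium genes. The second scaling moves the median of all genes by -1.94, so the 17 lower genes drawn lie further below 0; Kcnk1, Kcnk5 and Kcnn4 lie at -0.15, -0.97 and -0.43 on it and Kcnmb1 at 3.80.

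Within K5+ cells, 0 of the 64 genes passed between Kit+ and Kit- libraries with edgeR, where 0.658% of all genes tested did. At an unadjusted p under 0.05 there were 19 of 64, and 18.5% of all genes. With the block on library runs, 3 passed, Kcnn4 higher and Kcne1l and Kcnip3 lower in the Kit+K5+ cells, where 4.63% of all genes did. DESeq2 called 9 of the 64, and 6.10% of all genes, and limma-voom 0, and 0.341% of all genes. The median log2 difference was -0.85 over the 64 genes and -0.05 over all. Within Kit+ cells, 0 of the 64 genes passed between K5+ and K5- libraries in edgeR, with or without the block, in DESeq2 or in limma-voom, where 0% of all genes tested passed without the block and 0.317% with it. At an unadjusted p under 0.05 there were 7 of 64, and 6.82% of all genes, and the medians were -0.59 and -0.04.

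The interaction asked whether the difference between K5+ and K5- cells was itself different in Kit+ and Kit- cells. It passed for 6 of the 64 genes, where 4.02% of all genes tested passed, with 3 above 0 (2.81% of all genes) and 3 below (1.21%). Kcne4, Kcnn3 and Kcnt2 had positive interactions (log2 6.48 ± 1.16, 4.52 ± 0.84 and 4.11 ± 1.06), their lower level in K5+ cells being found among Kit- cells. Kcnk1 had a negative one (log2 -1.65 ± 0.38, adjusted p = 0.0266), as did Kcnmb1 and Kcnj16, whose groups of 1 and 2 counts make the size of the fitted value depend on the prior count. The count was 3 without replicate 3 of Kit+K5+ or replicate 1 or 2 of Kit-K5-, and 10 with the block on library runs, where 8.33% of all genes passed. On the epithelial scale the median of all genes moved by 1.67, and the interaction of Kcnk1 did not pass (adjusted p = 0.999).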

How the data were processed

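RNA from 12 libraries of sorted cells was sequenced by the authors as single 50 nt reads. Alignment used STAR 2.4.2a on GRCm38 and counting used featureCounts, per the labels' protocols. The submitters' processing notes add the build GRCm38.p3, featureCounts 1.4.6-p3, FastQC and Picard 1.129. The sources used here give neither annotation release nor strand setting. What the authors deposited are whole-number counts per gene symbol, and the series table and the single tables differed in 0 cells.

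Genes were chosen by symbol, and these genes and the lists used were chosen with earlier results of these data known. Counts were filtered with filterByExpr, scaled by TMM and tested in edgeR 4.0.16 (R 4.3.3) with a quasi-likelihood fit of 4 group coefficients over all 12 libraries, with 8 residual degrees of freedom and a common biological coefficient of variation of 0.437. All p-values are adjusted by Benjamini-Hochberg over 17030 genes, at 0.05, and standard errors follow from the F statistic. The filter and test were run on simulated data with known changes. These were planted only in genes of a higher mean level than most potassium channel genes, so low-count genes were not covered. Exon lengths and positions are from GENCODE M21 (93 of 93 genes matched), and promoter windows from RefSeq on GRCm38.p6. Intervals on ratios of counts are 95% and cover counting error only.

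Named genes were those past 0.05 in any comparison (up to 10 in each direction, largest first), the 10 with the highest mean RPKM and 11 channels of secretory epithelium. Kcnc2, Kcnd3, Kcng1, Kcnip1, Kcnip4 and Kcnq5 fall outside this rule and were named after their values were seen. Symbols of antisense or opposite-strand transcripts and Kcnrg were left out. Values of some members that count in the totals are not reported here, and 2 of these are also left out of the plots.

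Libraries were numbered in runs (1 to 4, 5 to 8, 9 to 12), and each run has 1 library of every group, though no label ties a run to a day or sort. Libraries of a run deviated together from their group means in the pairwise comparisons, with a lowest correlation of 0.263 (K5, Kit+ cells), 0.153 (K5, Kit- cells), 0.108 (Kit, K5+ cells) and 0.299 (Kit, K5- cells). Each exceeds the limit of 0.1, so the blocked value stands beside a result where it changes the call. The fit described above has no run term. Over the 18 pairs of the marked groups and the interaction the lowest was 0.0928. Fits with the run as a block, DESeq2 1.42.0, limma-voom (limma 3.58.1), other scalings, other filters, fits of the compared groups only and fits without each library were alternatives.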

Additional observations from a re-analysis of the deposited data

Results flagged for a closer look

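The difference between K5+ and K5- cells differed between Kit+ and Kit- cells for 6 potassium channel genes, by the interaction term of edgeR's quasi-likelihood fit. The interaction was 6.48 for Kcne4 (adjusted p = 0.00612), 4.52 for Kcnn3 (adjusted p = 0.00782) and 4.11 for Kcnt2 (adjusted p = 0.0455), on the log2 scale. It was -7.34 for Kcnmb1 (adjusted p = 0.0113), -7.28 for Kcnj16 (adjusted p = 0.0267) and -1.65 for Kcnk1 (adjusted p = 0.0266). Kcnmb1 had 1 count in the Kit-K5- group and Kcnj16 had 2 in the Kit+K5+ group, so their fitted sizes depend on the prior count. The calls of Kcne4, Kcnn3 and Kcnmb1 held without any 1 library. That of Kcnt2 was lost without any 1 of 8 libraries (adjusted p up to 0.147), that of Kcnk1 without any 1 of 8 (up to 0.0854) and that of Kcnj16 without any 1 of 9 (up to 0.0845).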

How the results depend on the processing

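Of 62 calls of a gene in a comparison, 40 held without any 1 library and 22 were lost without at least 1. All 62 kept their direction and passed with DESeq2 size factors, with the DESeq2 Wald test, with a replicate block on library runs and under both other filters; 61 did with upper-quartile scaling and 58 with limma-voom. With the block, the count was 3 for Kit in K5+ cells and 10 for the interaction. Scaling to 20 epithelium genes gave counts of 32 for K5 in Kit- cells (67.9% of all genes passed), 1 for Kit in K5+ cells (0.893%), 35 for Kit in K5- cells (71.4%), 47 for marked against double-negative cells (81.5%) and 18 for the interaction (43.3%). It reversed Kcnk1 (-0.24), Kcnma1 (-0.52) and Kcnmb4 (-1.05) for K5 in Kit- cells, Kcnk5 (-0.57) and Kcnma1 (-0.51) for Kit in K5- cells, and Kcnk1 (-0.15), Kcnk5 (-0.97) and Kcnn4 (-0.43) for marked cells; the median of all genes moved by -1.78, -1.97 and -1.94 in these comparisons. With no filter on low counts, 92 of the 93 genes were tested and the counts were 2 for K5 in Kit+ cells (0.874% of all genes), 7 for Kit in K5+ cells (3.33%) and 15 for the interaction (5.38%). For Kit in K5+ cells DESeq2 called 9 (6.10% of all genes) and the compared groups alone gave 1 of 36 tested (0.502%). Leaving out each library in turn gave counts of 0 in every case for K5 among Kit+ cells, 10 to 18 for K5 among Kit- cells (10 without Kit-K5- replicate 1), 0 to 2 for Kit in K5+ cells (2 without Kit+K5- replicate 1), 12 to 19 for Kit in K5- cells, 16 to 27 for marked cells and 3 to 6 for the interaction. At these depths 1 count is worth 0.0656 to 0.191 CPM, so levels under that value in a library are not detectable.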
